A study of Mus musculus with 4 samples.

Results

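Sox proteins are transcription factors that bind DNA through an HMG box, and 9 of their genes that mark neural progenitors and young neurons were followed here in newborn mouse brain with and without CIC (capicua), itself a repressor with an HMG box. The 9 genes were taken by name from the deposited table of FPKM values (fragment numbers scaled to transcript length and sequencing depth): the SoxB1 genes Sox1, Sox2 and Sox3, the SoxB2 gene Sox21, the SoxC genes Sox4, Sox11 and Sox12, the SoxD gene Sox6 and the SoxE gene Sox9. Each had 1 row among 20793 rows, and all 9 passed the filter of a mean FPKM of 1 or more that left 12703 rows for testing.

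Brains at postnatal day 1 gave 2 CIC knockout libraries and 2 WT libraries, lettered A and B in each group. The knockout genotype is Nes-Cre;CIClox/lox, in which a Nestin-driven Cre recombinase, active in neural progenitors and so inherited by neurons and glia made from them, deletes a loxP-flanked Cic allele; blood, vessel and microglial cells come from other lineages. For WT, the genotype field reads Nes-Cre;CIC+/+, whereas the titles read as Cre-minus animals of the floxed line, so whether WT carried Cre is unsettled in the labels. Strain, sex and the number of animals behind a library are not given, and p-values therefore measure the spread between these libraries, which may be technical.

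SoxB1 factors keep neural stem and progenitor cells undifferentiated, and Sox2 is the best known of them. As cells leave the cycle and become neurons, SoxC factors take over many sites that SoxB1 proteins held and switch on neuronal genes. SoxD proteins lack an activation domain of their own and act with partners, and the SoxE factor Sox9 is needed for neural stem cells and for making astrocytes.

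Cic was at 19.1 and 22.2 FPKM in the knockout libraries, against 51.3 and 56.4 FPKM in the WT libraries (log2 difference -1.34 ± 0.12, SE; limma's adjusted p = 0.213). Of the genes that CIC is known to repress, Etv4 and Spred3 rose, by 2.51 ± 0.11 and 2.07 ± 0.11 on the log2 scale (SE; limma's adjusted p = 0.0195 and 0.0307), and Etv5, at 1.59 ± 0.12, did not pass (adjusted p = 0.132). Both calls were lost with rows listed at 0 left out (limma's adjusted p = 0.0688 for each), when low rows were kept (0.293 for each) and without WT A (0.0845 and 0.184) or WT B (0.0735 and 0.111), and that of Spred3 also with a pseudocount of 0.1 (0.0714). The rows listed at 0 that were left out were only those at 10 FPKM or more in another library. Column sums lay between 440005 and 449559 FPKM. Total read depth is unknown, and low values put the depth of each library at 1 to 1.22 times that of WT A. Knockout B stood apart: its median absolute log2 distance from the mean of the other 3 libraries was 0.201, against 0.0974 for knockout A, 0.112 for WT A and 0.0924 for WT B. In bulk tissue, fewer cells of a type and less RNA per cell cannot be told apart, and this holds for every difference below.

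The SoxC promoters are shown because Sox4, Sox11 and Sox12 had knockout values under the lower WT value in each library, which held for none of the other 6 genes. Each line gives the 250 bases before the start of the gene, 5′ to 3′ on the gene's strand, from RefSeq on GRCm38.p6. They lie at chr13:28953700-28953949, chr12:27342719-27342968 and chr2:152398047-152398296 (in the order Sox4, Sox11, Sox12), all on the minus strand. For Sox11 the first bases of the RefSeq gene were not found in its GENCODE M21 transcript, so the 2 annotations place its start differently. Capitals mark CCAAT boxes (CCAAT or its reverse complement) and, in Sox12, 1 POU octamer.

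Sox4: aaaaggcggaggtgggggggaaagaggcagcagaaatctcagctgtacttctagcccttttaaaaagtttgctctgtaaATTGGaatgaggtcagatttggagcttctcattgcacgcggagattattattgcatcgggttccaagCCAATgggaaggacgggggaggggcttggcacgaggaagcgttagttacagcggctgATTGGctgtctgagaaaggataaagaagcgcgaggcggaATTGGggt
Sox11: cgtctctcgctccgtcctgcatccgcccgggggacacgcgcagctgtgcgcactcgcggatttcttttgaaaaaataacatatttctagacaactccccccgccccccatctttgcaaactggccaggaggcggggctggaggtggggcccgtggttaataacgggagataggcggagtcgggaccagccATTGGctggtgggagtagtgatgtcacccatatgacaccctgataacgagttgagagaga
Sox12: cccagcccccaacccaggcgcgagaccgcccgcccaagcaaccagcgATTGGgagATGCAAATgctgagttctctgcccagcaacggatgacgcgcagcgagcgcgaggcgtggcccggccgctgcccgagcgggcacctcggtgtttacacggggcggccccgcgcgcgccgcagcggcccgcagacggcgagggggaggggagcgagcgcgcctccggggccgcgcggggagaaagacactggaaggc

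CCAAT boxes, general promoter elements bound by NF-Y, occurred 4 times in the Sox4 window and once each in those of Sox11 and Sox12, and 33.8% of all 32851 promoter windows of this length held at least 1. The octamer ATGCAAAT, bound by POU factors that partner SoxB1 proteins, was found in the Sox12 window and in 1.60% of all windows. The CIC octamers TGAATGAA and TGAATGGA, searched on both strands, were not in the windows of the 7 genes that had an entry (Sox3 and Sox9 had none), and 2.07% of all windows held one. That says only that these letters are missing from this stretch. The Sox cores ACAATG and ACAAAG, on both strands, were present in 25.2% of all windows, among them that of Sox2 and 5 of the 6 listed starts of Sox6. For Sox2, as for Sox11, the first bases of the RefSeq gene were not found in its GENCODE M21 transcript. CG dinucleotides numbered 35 in the Sox12 window, 17 in that of Sox11 and 11 in that of Sox4, against a median of 6 over all windows. They numbered 29 for Sox1, 27 for Sox2, 17 for Sox21 and from 1 to 10 in the windows of Sox6. CCAAT boxes were in 7 of the 12 windows of the 7 genes, among them those of Sox1 and Sox2. Neither feature was thus particular to SoxC.

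The 9 genes spanned a wide range of levels, and SoxC genes made up most of the sum. The mean over 4 libraries was 174 FPKM for Sox4, 73.4 for Sox11, 47.5 for Sox12, 28.2 for Sox2, 18.2 for Sox1, 7.84 for Sox9, 6.40 for Sox6, 5.84 for Sox21 and 4.74 for Sox3. Down to Sox1 and Sox9 the ranges of neighbours in this order did not overlap over the 4 libraries. Below that they did: Sox9 and Sox6, Sox6 and Sox21, and Sox21 and Sox3 could not be ordered beyond their spread. Sox4 ranked above 97.2% of tested rows by its mean and Sox3 above 23.7%. The first 5 genes kept their places in every library. Sox3 was the lowest of the 9 in knockout A and both WT libraries, and Sox6 was the lowest in knockout B.

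**Figure D1:**
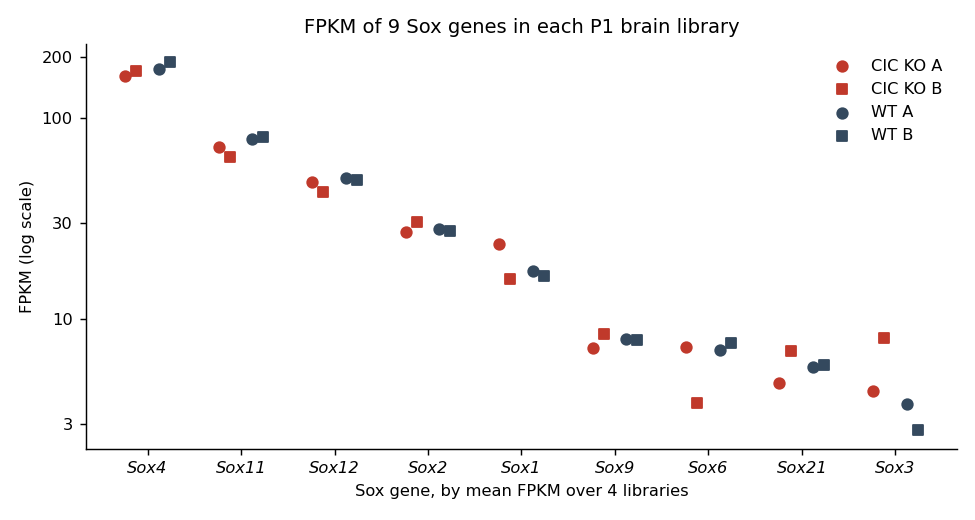
FPKM on a log axis for the 9 Sox genes, ordered by mean level, in knockout A and B (red circle and square) and WT A and B (dark circle and square). Sox4, Sox11 and Sox12 have both knockout points below both WT points, and Sox3 has both above. The knockout points of Sox1, Sox3, Sox6 and Sox21 lie far apart.

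No Sox gene of the 9 passed the test of knockout against WT, for which limma compared log2(FPKM + 1) with Benjamini-Hochberg adjustment over all 12703 rows (threshold 0.05). In all, 6 rows or 0.0472% passed. At an unadjusted p under 0.05 there were 0 of 9 Sox genes, against 10.2% of all rows. Knockout and WT values did not overlap, with knockout above, for 1 of the 9, Sox3, against 27.1% of all rows, and with knockout below for 3 of the 9, the SoxC genes, against 21.7% of all rows. The median log2 difference of the 9 was -0.03, against 0.02 over all rows. By these counts the 9 genes as a whole differed about as often as the rest of the table.

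**Figure D2:**
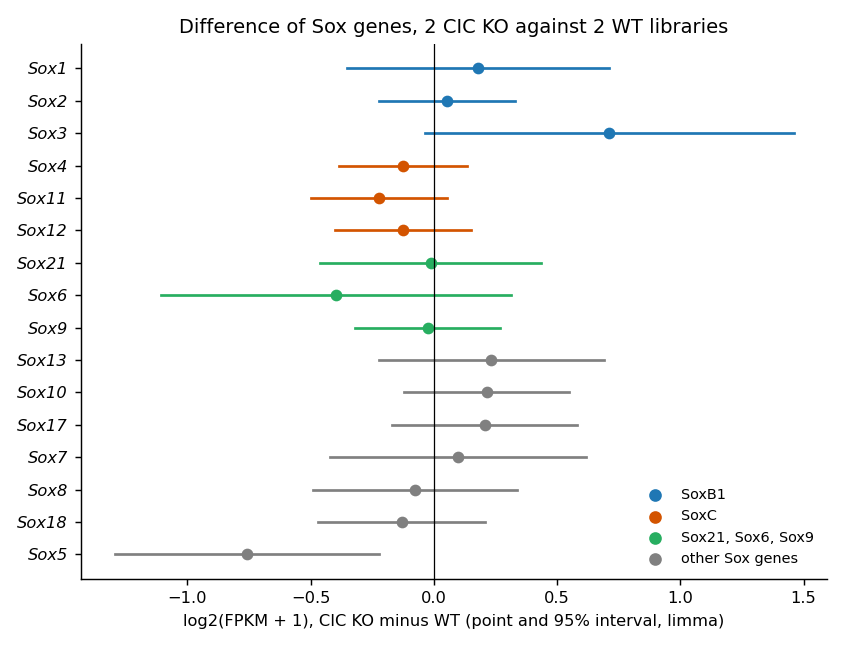
Log2 difference in FPKM + 1, CIC knockout minus WT, with limma's 95% interval, for the 9 Sox genes by subfamily and for the 7 other Sox genes tested. The intervals of all 9 include 0, that of Sox3 being the widest, and of the other Sox genes that of Sox5 lies below 0 before adjustment for multiple tests.

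Among the SoxB1 genes, Sox2 and Sox1 overlapped between the groups and Sox3 did not. Sox2, which maintains neural stem cells (mm9, chromosome 3, 34548927 to 34551382), was at 27.002 and 30.5 FPKM in knockout A and B, against 28.0 and 27.2 FPKM in WT A and B. The log2 difference of 0.05 ± 0.11 (SE; limma's adjusted p = 0.838) had a 95% interval from -0.22 to 0.33. It was thus the steadiest SoxB1 gene, within a precision that still allows a shift of that size.

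Sox1, one of the earliest markers of neural fate (chromosome 8, 12395519 to 12399555), was at 23.5 and 15.7 FPKM in knockout A and B, against 17.3 and 16.4 FPKM in WT A and B. Knockout A was the highest library and knockout B the lowest, so the mean difference of 0.18 ± 0.20 (SE; limma's adjusted p = 0.712) describes neither. In knockout A alone the log2 difference from the WT mean was 0.45, and in knockout B it was -0.09.

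Sox3, an X-linked gene of progenitors that is also needed for the hypothalamic and pituitary axis (X chromosome, 58144541 to 58146605), was at 4.37 and 8.03 FPKM in knockout A and B, against 3.78 and 2.79 FPKM in WT A and B. The groups did not overlap, and knockout B stood well above knockout A. The knockout mean was 6.20 ± 2.59 FPKM and the WT mean 3.28 ± 0.698 FPKM (SD, n = 2 each). Its log2 difference of 0.71 ± 0.28 (SE; limma's adjusted p = 0.4999) was the largest of the 9, with a 95% interval from -0.04 to 1.46. Without knockout B it was 0.34, and without knockout A it was 1.09, so that 1 library sets most of its size.

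All 3 SoxC genes were lower in the knockout libraries by small amounts. Sox4, a SoxC activator of the neuronal programme and the most abundant of the 9 genes (chromosome 13, 29042599 to 29045551), was at 162 and 171 FPKM in knockout A and B, against 175 and 188 FPKM in WT A and B. The groups did not overlap, but the nearest libraries, knockout B and WT A, were closer to each other than the WT libraries were. Sox4 had a log2 difference of -0.13 ± 0.10 (SE; limma's adjusted p = 0.615; 95% interval from -0.39 to 0.13).

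Sox11, the other strongly expressed SoxC gene of newly made neurons (chromosome 12, 28019133 to 28027583), was at 71.7 and 63.7 FPKM in knockout A and B, against 78.1 and 79.9 FPKM in WT A and B. The gap between the groups was wider than the gap within WT and narrower than the gap between the knockout libraries. The knockout mean was 85.7% of the WT mean, and the log2 difference was -0.22 ± 0.10 (SE; limma's adjusted p = 0.531; 95% interval from -0.50 to 0.05).

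Sox12, a SoxC gene known as a weaker activator than its relatives (chromosome 2, 152219348 to 152223782), was at 48.1 and 42.7 FPKM in knockout A and B, against 50.1 and 49.0 FPKM in WT A and B. Knockout A was just below WT, and knockout B carried most of the log2 difference of -0.13 ± 0.10 (SE; limma's adjusted p = 0.629).

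None of the sums formed here overlapped between the groups, although the values of several single genes did. Such separation was common among single rows, of which 27.1% lay above WT and 21.7% below without overlap. The sum of Sox21, Sox6 and Sox9 joins genes of different subfamilies. FPKM is scaled by transcript length, so levels of different genes can be added. Sox1, Sox2 and Sox3 together came to 54.8 and 54.2 FPKM in knockout A and B, against 49.1 and 46.4 FPKM in WT A and B. The knockout mean was 114% of the WT mean. The SoxC sum was 281 and 278 FPKM in knockout A and B, against 303 and 317 FPKM in WT A and B, with a knockout mean of 90.1% of the WT mean. The sum of Sox21, Sox6 and Sox9 was 19.2 and 19.1 FPKM in knockout A and B, against 20.7 and 21.4 FPKM in WT A and B, with a knockout mean of 91.1% of the WT mean. The sum of all 9 genes was 355 and 351 FPKM in knockout A and B, against 373 and 385 FPKM in WT A and B, or 93.2%. In each sum the knockout libraries were nearly equal, although the gene behind the SoxB1 sum differed: it was Sox1 in knockout A and Sox3 with Sox2 in knockout B. The genes behind the sum of Sox21, Sox6 and Sox9 differed too. In knockout A, Sox21 and Sox9 were below WT. In knockout B, Sox6 was below WT, and Sox21 and Sox9 were above.

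The SoxC sum was 5.13 and 5.12 times the SoxB1 sum in knockout A and B, against 6.18 and 6.84 times in WT A and B. These sums are a description: they were formed with earlier results of these data known, and 0.333 is the smallest two-sided p that exact permutation of 4 libraries allows. SoxC genes held 79.2% and 79.1% of the summed FPKM of the 9 genes in knockout A and B, against 81.3% and 82.4% in WT A and B.

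**Figure D3:**
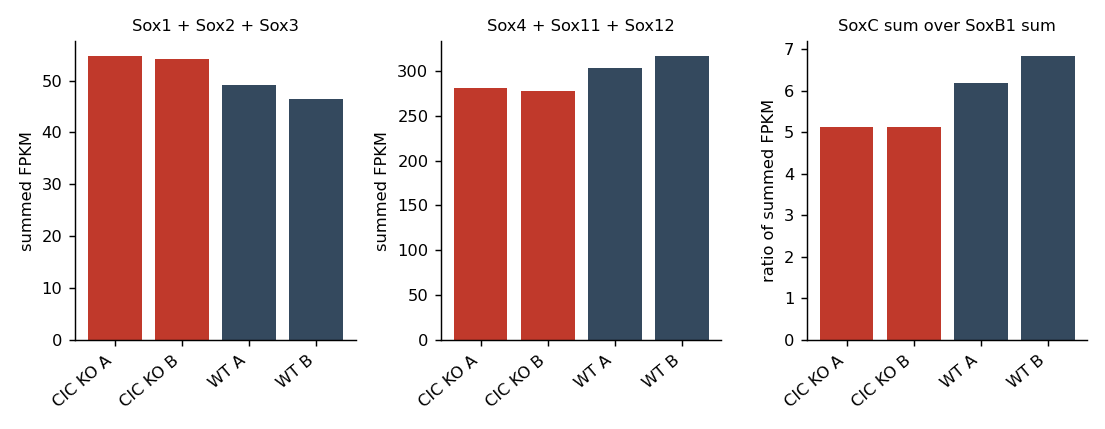
Summed FPKM of Sox1, Sox2 and Sox3 (left), summed FPKM of Sox4, Sox11 and Sox12 (middle) and the SoxC sum divided by the SoxB1 sum (right), one bar for each library with axes from 0. The knockout bars are the higher ones in the SoxB1 sum and the lower ones in the SoxC sum and in the ratio, which is 5.13 and 5.12 in knockout against 6.18 and 6.84 in WT.

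Sox21, Sox6 and Sox9 overlapped between the groups. Sox21, a SoxB2 factor that in chick counteracts SoxB1 proteins and promotes neurogenesis (chromosome 14, 118632456 to 118636252), was at 4.81 and 6.89 FPKM in knockout A and B, against 5.74 and 5.92 FPKM in WT A and B. The knockout libraries lay on either side of WT, and the log2 difference of -0.01 ± 0.17 (SE; limma's adjusted p = 0.981) had a 95% interval from -0.46 to 0.44. Sox9, a factor of neural stem cells and astrocytes (chromosome 11, 112643524 to 112649071), was at 7.14 and 8.41 FPKM in knockout A and B, against 7.92 and 7.89 FPKM in WT A and B. It too fell on both sides of WT, with a log2 difference of -0.03 ± 0.11 (SE; limma's adjusted p = 0.931).

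Sox6, a SoxD factor of cortical progenitors and of interneurons born in the ventral forebrain (chromosome 7, 122614858 to 123182258), was at 7.22 and 3.82 FPKM in knockout A and B, against 7.03 and 7.54 FPKM in WT A and B. Knockout A lay between the WT libraries and knockout B well below them. The log2 difference was -0.40 ± 0.27 (SE; limma's adjusted p = 0.578), and without knockout B it was -0.01.

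The knockout libraries therefore disagreed with each other for several of the 9 genes. Without knockout A, limma called 3 of the 9 (Sox3 higher, Sox6 and Sox11 lower), but that fit called 33.9% of all rows. Its spread comes from the WT pair alone, and knockout B is taken to vary to the same degree. Without knockout B it called 0 of the 9.

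**Figure D4:**
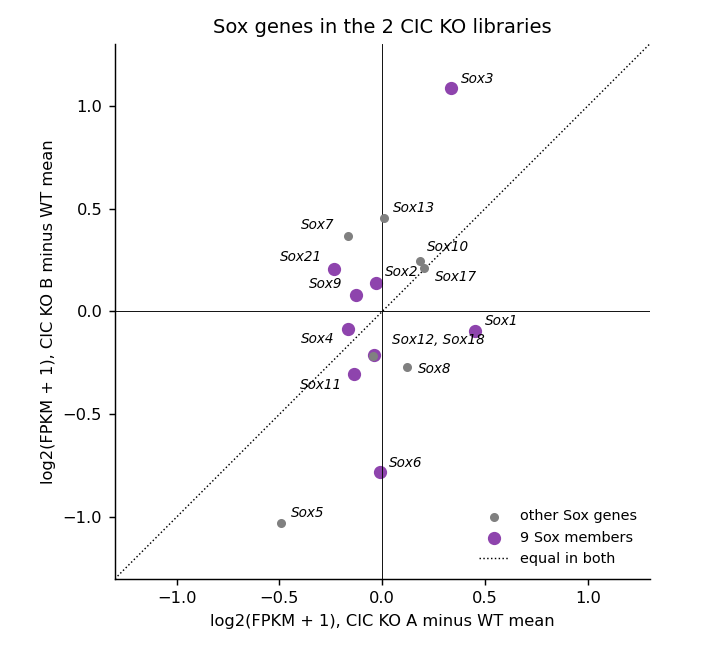
Log2 FPKM + 1 minus the WT mean in knockout A (horizontal) and knockout B (vertical) for the 9 Sox genes (purple) and the 7 other Sox genes tested (grey), with the line of equal difference dotted. Sox3 lies at 0.34 and 1.09, Sox6 at -0.01 and -0.78, Sox1 at 0.45 and -0.09, and Sox5 is below 0 in both.

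The other Sox genes of the table were read beside the 9. Of 11 such genes 7 were tested, 0 passed, 2 lay above WT in both knockout libraries (27.1% of all rows) and 1 below (21.7% of all rows), and their median log2 difference was 0.10. At an unadjusted p under 0.05 there was 1, Sox5, against 10.2% of all rows. Sox5, the SoxD relative of Sox6 that specifies deep-layer cortical projection neurons, was at 11.4 and 7.56 FPKM in knockout A and B, against 15.5 and 17.4 FPKM in WT A and B. The groups did not overlap, and the log2 difference was -0.76 ± 0.20 (SE; limma's adjusted p = 0.464).

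Sox10 and Sox17, a gene of the oligodendrocyte lineage and a SoxF gene of arterial endothelium, were the pair above WT, with log2 differences of 0.21 ± 0.13 and 0.21 ± 0.14 (SE). Sox13, Sox7, Sox8 and Sox18 overlapped between the groups, at 0.23 ± 0.17, 0.10 ± 0.20, -0.08 ± 0.16 and -0.13 ± 0.13. Sox14, a SoxB2 gene of GABAergic neurons in thalamus and midbrain, was below the filter, with 0.186 and 3.71 FPKM in knockout A and B, against a listed 0 and 0.0148 FPKM in WT A and B. Nearly all of it was in knockout B. Sox15, Sox30 and Sry were under 0.2 FPKM in every library and were not tested.

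Markers of brain regions also differed between the libraries, knockout B included, in which Sox3 and Sox6 lay farthest from WT. Summed FPKM of 8 hypothalamic markers was 29.5 and 32.1 in knockout A and B, against 8.34 and 4.16 in WT A and B. The hypothalamic hormone gene Avp was at 16.3 and 16.2 FPKM in knockout A and B, against 4.36 and 0.281 FPKM in WT A and B, and the hypothalamic regulator Otp at 2.19 and 6.18 FPKM, against 0.370 FPKM and a listed 0. Of this list 3 genes were tested, 3 lay above WT in both knockout libraries, against 27.1% of all rows, and 0 passed. The sum of 8 cerebellar and hindbrain markers was 50.6 and 127 FPKM in knockout A and B, against 21.4 and 25.9 FPKM in WT A and B, with 5 tested, 2 above WT (27.1% of all rows) and 0 passing. Zic1, a gene of dorsal neural tube and cerebellum, was at 28.6 and 61.8 FPKM in knockout A and B, against 9.51 and 13.0 FPKM in WT A and B. The hindbrain genes Barhl1 and En2, the first at 0.0835 and 11.4 FPKM and the second at a listed 0 and 5.27 FPKM in knockout A and B, were at most at 0.524 FPKM in WT, so that knockout B was the one library with clear levels of them.

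Summed FPKM of 7 cortical markers was 435 and 273 in knockout A and B, against 548 and 584 in WT A and B. Neurod6, of cortical pyramidal neurons, was at 150 and 88.3 FPKM in knockout A and B, against 206 and 214 FPKM in WT A and B. Of these 7 genes 6 lay below WT in both knockout libraries, against 21.7% of all rows, and 0 passed the test. For 6 choroid plexus and ependyma markers the sum was 974 and 1044 FPKM in knockout A and B, against 155 and 491 FPKM in WT A and B; 5 of 6 lay above WT (27.1% of all rows) and 0 passed. Ttr, the transthyretin gene, was at 951 and 1005 FPKM, against 144 and 475 FPKM, and Otx2 at 2.75 and 11.2 FPKM, against 0.838 and 1.53 FPKM. Blood markers summed to 99.5 and 1197 FPKM in knockout A and B, against 287 and 188 FPKM in WT A and B, with 0 passing and 4 globin rows, including both of Hba-a1, listed at 0 in knockout A. Whether the make-up of the tissue samples had a part in the Sox values was not tested.

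Genes that work with Sox factors were not called either. Of 13 partners and targets of SoxB1 and SoxC proteins 12 were tested and 0 passed, 1 lay above and 4 below WT in both knockout libraries, against 27.1% and 21.7% of all rows, and the median log2 difference was -0.02. Nes, the intermediate filament gene whose neural enhancer binds Sox2 with POU factors, was at 8.002 and 6.84 FPKM in knockout A and B, against 11.2 and 10.97 FPKM in WT A and B. Pou3f3, such a POU factor, was at 64.1 and 57.5 FPKM, against 80.2 and 84.2 FPKM. Both genes were below WT in both libraries (log2 differences of -0.52 ± 0.11 and -0.43 ± 0.10, SE; limma's adjusted p = 0.417 and 0.439). Pou3f2, a further POU gene of the list, was at 9.78 and 12.5 FPKM in knockout A and B, against 14.7 and 15.4 FPKM in WT A and B. Its log2 difference was -0.41 ± 0.14 (SE). Hes5, a Notch effector, and the POU gene Pou3f4 had differences of 0.01 each.

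Among 15 radial glia and progenitor genes, all tested, 0 passed, 1 lay above and 5 below WT in both knockout libraries, against 27.1% and 21.7% of all rows, and the median log2 difference was 0.04. Lhx2, a cortical selector gene, was at 42.9 and 51.4 FPKM in knockout A and B, against 68.1 and 65.7 FPKM in WT A and B. Pax6, expressed in radial glia and in cerebellar granule cells, was at 6.79 and 13.9 FPKM, against 7.57 and 7.73 FPKM, with knockout B alone above WT.

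Of 14 young neuron genes 13 were tested, 0 passed, 1 lay above and 8 below WT in both knockout libraries, against 27.1% and 21.7% of all rows, and the median log2 difference was -0.20. Igfbpl1, a marker of newborn neurons, was at 64.8 and 43.7 FPKM in knockout A and B, against 88.5 and 87.8 FPKM in WT A and B. The surface antigen gene Cd24a was at 568 and 333 FPKM, against 702 and 692 FPKM. These 2 genes differed most in the list; the SoxC genes, also of young neurons, had differences of -0.13, -0.22 and -0.13, near the list's median.

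Astrocyte genes, beside which Sox9 may be read, had a median log2 difference of 0.27, with 6 of 9 above WT in both knockout libraries, against 27.1% of all rows, and 0 passing. Apoe and Fgfr3 differed most, with 0.70 ± 0.14 and 0.54 ± 0.13 (SE). In the oligodendrocyte list, which includes Sox8 and Sox10, 3 of 8 were above (27.1% of all rows), 0 passed and the median was 0.11; Mbp had 0.35 ± 0.18 and Olig1 -0.24 ± 0.16. Of 5 endothelial genes 2 were above (27.1% of all rows), 0 passed and the median was 0.08; Pecam1 had 0.39 ± 0.18 and Tek 0.14 ± 0.09.

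**Figure D5:**
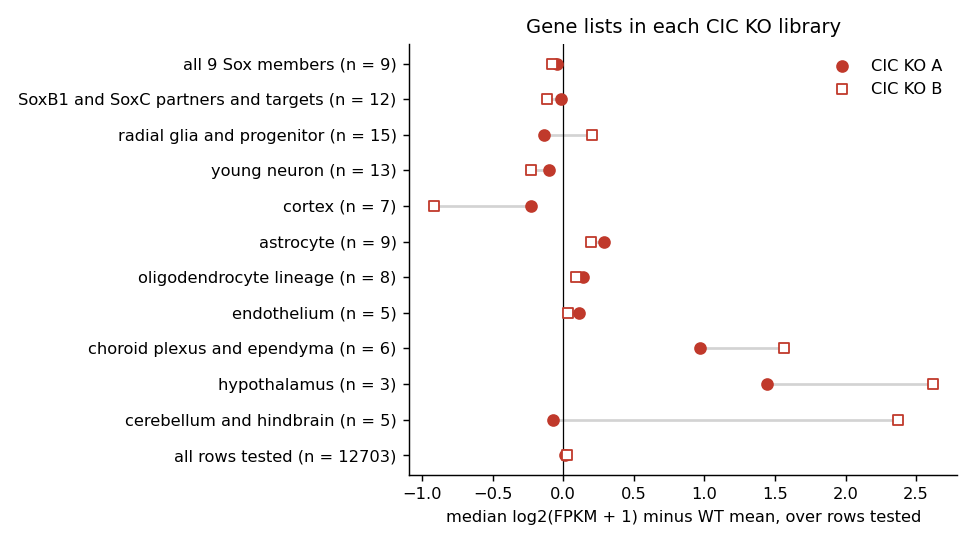
Median log2 FPKM + 1 minus the WT mean over the tested rows of each gene list, in knockout A (filled circle) and knockout B (open square). The 9 Sox genes sit near 0 in both, with medians of -0.04 and -0.08, while the cortical, hypothalamic and hindbrain lists differ between the knockout libraries.

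Of the 9 genes, all but Sox6 and Sox9 (7 genes) are encoded in 1 exon in the GENCODE M21 annotation of GRCm38, where Sox9 has 3 exons and the longest coding transcript of Sox6 has 17. A gene without introns offers no splice junctions by which its RNA can be told from its DNA or from overlapping transcripts; the labels' protocol includes a DNase step. The table had no other row overlapping any of the 9. The Sox4 row spans 2.95 kb in mm9, whereas its M21 transcript is 4.80 kb long, so its level relative to the other genes depends on the gene model used.

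None of the neighbouring rows tested passed. Sox12 had the closest neighbours, Nrsn2 at 17.0 kb and Zcchc3 at 13.9 kb. Nrsn2, which encodes the neuronal vesicle protein neurensin 2, was at 23.4 and 31.0 FPKM in knockout A and B, against 13.4 and 10.97 FPKM in WT A and B, opposite in direction to Sox12 (log2 difference 1.09 ± 0.18, SE; limma's adjusted p = 0.411). Zcchc3 was at 6.68 and 6.67 FPKM, against 7.40 and 7.26 FPKM, on the same side as Sox12 (log2 difference -0.12 ± 0.09, SE). Gm715, on the lower side of Sox3, and Cdkal1, on the higher side of Sox4, also lay on the side of their Sox gene with no overlap between the groups, at 0.20 ± 0.13 and -0.23 ± 0.11. Kcnj2, beside Sox9, was without overlap too (-0.70 ± 0.16), with the sign of Sox9 (-0.03). The other tested neighbours without overlap had the sign opposite to their Sox gene. These were Dcdc2c beside Sox11 (0.25 ± 0.11), 1110004F10Rik beside Sox6 (0.08 ± 0.10), Gpr180 beside Sox21 (0.15 ± 0.09) and Dnajc19 beside Sox2 (-0.05 ± 0.09). Insc beside Sox6, under the filter, was also above WT without overlap. Sox2, Sox6, Sox9 and Sox21 themselves overlapped between the groups, so their own direction is not settled. Of all rows, 27.1% lay above WT and 21.7% below without overlap. The Sox genes other than Sox12 had their nearest rows 30.1 kb or more away, and Kcnj2 on the lower side of Sox9, at a gap of 1705 kb, was at 2.54 and 1.72 FPKM in knockout A and B, against 4.27 and 3.81 FPKM in WT A and B.

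Rows with the most similar profile were found by Euclidean distance over the 4 libraries, on log2(FPKM + 1) centred on each row's mean, among 7235 rows with a mean of 10 FPKM or more. For Sox3 these were Id4, which encodes an inhibitor of bHLH factors in neural progenitors, Impact and Pla2g7, at distances of 0.180, 0.195 and 0.203. Id4 was at 36.6 and 52.6 FPKM in knockout A and B, against 31.4 and 24.2 FPKM in WT A and B. For Sox11 they were Syncrip, Dnajc2 and Rps19, at 0.0147, 0.0185 and 0.0210, and for Sox6 they were Gtf2i, Nkain2 and Drp2, at 0.0306, 0.0331 and 0.0353. With 4 libraries many rows share a profile by this measure, so the names describe the pattern and no more.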

How the data were processed

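RNA of 4 mouse brain libraries (2 CIC knockout, 2 WT, postnatal day 1) was analysed. The authors deposited 1 FPKM value per gene row and library; per the submitters' processing notes, Cufflinks 2.1.1, TopHat2 2.0.11, cutadapt and bcl2fastq 2.17 were used with mm9, with neither settings nor strandedness given. The unit was inferred from these tools and the values. Coordinates are the table's, with the start raised by 1.

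From the deposited FPKM values, log2(FPKM + 1) of the 12703 rows with a mean of 1 or more was compared in limma 3.58.1 under R 4.3.3 (lmFit, eBayes, trend and robust off, 2 residual and 2.63 prior degrees of freedom), two-sided, adjusted over all rows. The scale understates changes of low genes. The calculation was tested on simulated data. Depth relative to WT A was read as the most frequent ratio of low values between libraries.

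The members and lists were chosen with earlier results of these data known. Named besides the 9 genes are the other Sox genes, Cic, neighbouring rows and rows of similar profile. From every list the called genes are named or, with none called, the 2 that differed most. En2, Hes5, Pou3f2, Pou3f4 and the neighbours given with values were picked after their values were seen. Values of a further gene from the cited lists are not reported here. Alternatives covered the pseudocount, the filter, scaling, trend, the replicate letter as a block and leaving out each library. Leaving out rows listed at 0 (those with 10 FPKM or more in another library) was added after seeing the data.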

Additional observations from a re-analysis of the deposited data

How the results depend on the processing

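With 2 libraries a group and 2 residual degrees of freedom, moderate differences of the 9 Sox genes could not be resolved, and the intervals of Sox3 and Sox6 were the widest. Of 107 values of the 9 genes under 12 alternatives, 99 kept their direction and side of the threshold, 5 turned direction and 3 passed the threshold; Sox3 had no value at a mean FPKM of 5 or more. The 5 came from leaving out 1 library, where the log2 difference ranged from -0.093 to 0.45 for Sox1, from -0.030 to 0.14 for Sox2, from -0.13 to 0.080 for Sox9 and from -0.23 to 0.21 for Sox21. Changing the filter, trend, block or rows listed at 0 leaves a gene's log2 difference as it was, so direction could not turn there. Only the pseudocount, the scaling and leaving out a library could turn it. The 3 (Sox3, Sox6 and Sox11) came from leaving out knockout A, with adjusted p of 0.0123, 0.00731 and 0.0367 in limma. Leaving out each library gave 0 to 3 of the 9 called, 1 to 2269 rows called higher and 3 to 2036 called lower, against 3 higher and 3 lower with all libraries. Rows called higher numbered 1 with a pseudocount of 0.1 and 1 with no filter on low values. With rows listed at 0 in any library left out, an alternative chosen after seeing the data, 0 were called higher and 0 lower. With a replicate block on the letters A and B, 0 of the 9 were called, 4 rows were higher and 3 lower, and Sox3 had a difference of 0.71 with an adjusted p of 0.423. The letters mark no stated pairing, and the deviations of same-lettered libraries correlated at -0.013 across rows. The summed FPKM of the SoxB1 and SoxC genes kept its direction with rescaling. Neither sum overlapped between the groups, so leaving out 1 library could not turn its direction and bears only on its size. Without 1 library the differences ranged from 5.44 to 8.14 FPKM for SoxB1 and from -37.7 to -23.7 FPKM for SoxC. The cause of the changes was not tested.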
